A study of Mus musculus with 4 samples.

Results

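The autophagy machinery was described here as 44 genes of the 27293 in the deposited count table. The members were chosen by gene symbol alone, from the Atg genes, the ULK kinases, the class III PI3-kinase subunits, the WIPI proteins, the ATG8 proteins, the cargo receptors and the transcription factors Tfeb and Tfe3, and the rule uses no measured value. All 44 symbols belong to protein-coding genes and all 44 passed the filter on low counts, which left 16145 genes for testing.

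Autophagy is the process by which a cell encloses part of its cytoplasm in a double membrane, the autophagosome, and delivers it to lysosomes for breakdown. A kinase complex starts the process, a lipid kinase marks the site with a phosphoinositide, ATG9 vesicles and ATG2 lipid carriers feed the growing membrane, and enzymes related to those of ubiquitin conjugation attach the small ATG8 proteins (LC3 and GABARAP) to it, where cargo receptors dock. In the developing brain the pathway is known for clearing aggregates and damaged organelles in progenitors and neurons, and STING, the adaptor that responds to cytosolic DNA, is itself known to trigger LC3 lipidation when it is activated.

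RNA was sequenced from the telencephalic tissue (named cerebral cortex in the study's methods) of C57BL/6 mouse embryos at embryonic day 13 (E13), in 2 libraries labelled WT and 2 labelled with the genotype STINGf/f;Nestin-Cre (cKO). In the latter, Cre recombinase is driven by the Nestin promoter, which is active in neural progenitors, so cells of other lineages in the tissue should keep an intact STING gene. No source used here says whether the WT embryos carried Cre or floxed alleles, and the title of WT 2 holds an abbreviation that the title of WT 1 does not. Nothing states that the libraries of a group came from separate embryos or litters either. The summed counts of Y-linked genes, 2735 in WT 1 and 0 in WT 2, show that these 2 libraries did not come from the same embryo. For the libraries labelled cKO that is not known. The p-values below measure the spread between these samples, which may be technical in cKO. The question addressed was whether the RNA of autophagy genes differed between the groups.

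Counts on genes summed to between 17209654 and 18533391 per library. The STING gene, listed as Tmem173, had counts of 20 and 19 in the libraries labelled WT and 18 and 22 in those labelled cKO, so its count over the whole gene did not separate the groups, and reads from exons outside a deleted part would be counted alike; every direction below is therefore that of the libraries labelled cKO against those labelled WT. The 9 telencephalic markers used (Emx1, Pax6, Tubb3 and others) summed to between 4265 and 4900.0 CPM (counts scaled to a common library size) per library. Markers of other tissues were present and were highest in WT 1, where 8 markers of meninges and mesenchyme summed to 292 CPM against 39.7 to 76.4 CPM in the other 3 libraries and 7 blood markers to 900 CPM against 338 to 520 CPM. Markers of choroid plexus, endothelium and microglia were also highest in WT 1, at 48.9, 175 and 29.5 CPM in sum. The counts of 4 Y-linked genes summed to 0 in WT 2 and to between 1848 and 3002 in the other 3 libraries, so the embryos behind the libraries differed in sex; 3 of the members, Wdr45, Atg4a and Tfe3, are X-linked. The library cKO 2 stood apart in a trend with gene length that is described with the members' values below.

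The ATG8 proteins are the members by which autophagosomes are most often recognised, and the ends of their coding sequences show why the 4 ATG4 proteases and the 5 ATG8 genes belong to one pathway. ATG4 cuts each ATG8 protein after a glycine near its C terminus, and that glycine is then joined to phosphatidylethanolamine in the membrane. The last 60 coding bases, stop codon included, are given 5′ to 3′ on the coding strand of the GRCm38 transcripts (GENCODE M21), with the codon of the last glycine in capitals.
Gabarap: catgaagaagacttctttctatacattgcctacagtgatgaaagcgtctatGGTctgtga
Gabarapl1: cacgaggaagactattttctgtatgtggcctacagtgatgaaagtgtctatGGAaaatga
Gabarapl2: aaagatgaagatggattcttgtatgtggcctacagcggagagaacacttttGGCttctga
Map1lc3a: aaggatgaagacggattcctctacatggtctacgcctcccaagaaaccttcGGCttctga
Map1lc3b: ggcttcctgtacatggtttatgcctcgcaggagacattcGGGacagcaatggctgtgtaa
The glycine was codon 116 of 117 in Gabarap, Gabarapl1 and Gabarapl2 and codon 120 of 121 in Map1lc3a, so 1 residue is removed from each of these, whereas in Map1lc3b it was codon 120 of 125 and 5 residues follow it. Over the whole coding part, identity between pairs of the 5 genes ran from 54.4% (Gabarapl1 and Map1lc3a) to 77.5% (Map1lc3a and Map1lc3b), with 74.9% for Gabarap and Gabarapl1. No pair shared a stretch of 50 identical bases in the coding part, so a read of that length from the coding part of one would not match another.

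The RNA level of the 44 genes spanned a wide range. Levels between genes are compared as CPM per kilobase of annotated exon, averaged over the 4 libraries. Gabarap was the highest of all members at 145 CPM per kb, followed by Map1lc3a at 77.8, Sqstm1 at 53.9, Gabarapl1 at 47.3, Gabarapl2 at 38.4, Ulk1 at 38.3, Nbr1 at 36.9 and Map1lc3b at 31.9 CPM per kb. All 5 ATG8 genes were thus among the 8 highest members. At the other end, Atg9b had 0.221 CPM per kb, Tfeb 0.267 and Optn 0.608, and the ratio of the highest to the lowest member was 656. Ordered instead by the length of the longest transcript, no member moved by 10 or more places, and the Spearman correlation of both orders was 0.975 over the 44 genes. Adjacent members such as Gabarapl2, Ulk1 and Nbr1 were not separated beyond the spread between libraries, which for Gabarapl2 ran from 35.2 to 42.7 CPM per kb. The lowest count of any member in any library was 13 and the highest 5475, so each member was measured well above a count of 0.

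**Figure D1:**
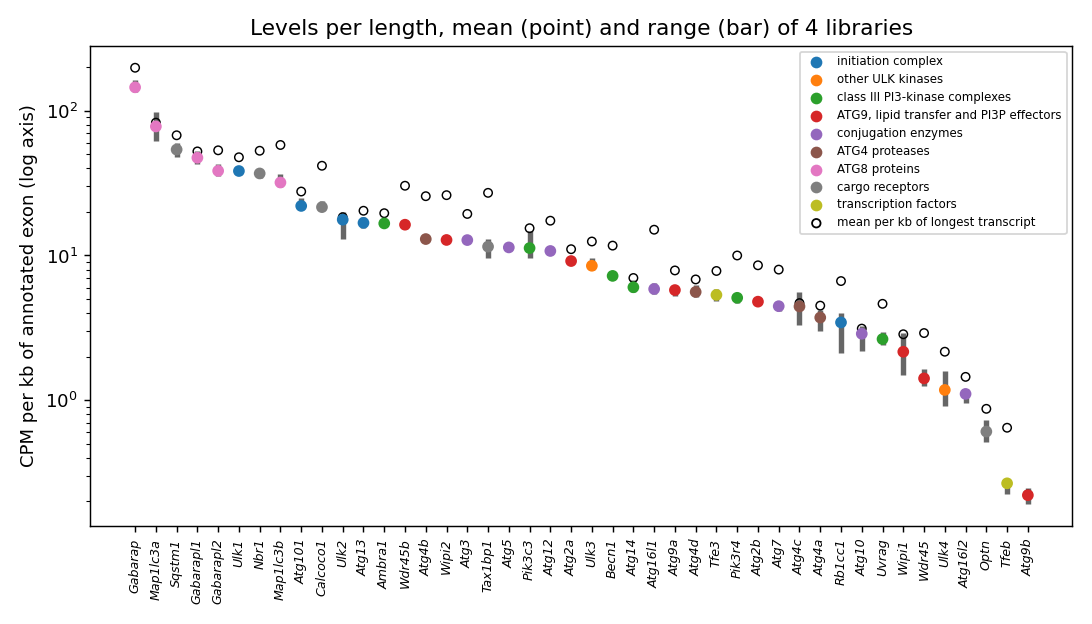
Level of each of the 44 autophagy genes per kilobase of annotated exon (vertical log axis, CPM per kb; filled points, mean of the 4 libraries; bars, lowest to highest library) in falling order, with the mean per kilobase of the longest transcript as open circles. The 5 ATG8 genes are among the 8 highest and Atg9b, at 0.221 CPM per kb, is the lowest.

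No member passed a test between the groups. Of the 44 genes, 0 met the study's thresholds (2-fold or more with an unadjusted p of at most 0.05) in edgeR's quasi-likelihood test (0.811% of all 16145 genes tested met them), 0 had an unadjusted p of at most 0.05 (1.23% of all genes), and 0 had a Benjamini-Hochberg adjusted p under 0.05 (0% of all genes). DESeq2 also gave 0 members with an unadjusted p of at most 0.05 (0.787% of all genes). The smallest p of a member was 0.221, for Wipi1, and the adjusted p was 0.9999 for every member. The fitted log2 fold change of cKO over WT ran from -0.40 to 0.23, a ratio of 0.758 to 1.17, with a median of 0.03 over the members and -0.01 over all genes tested. It was above 0 for 26 members and below 0 for 18 (47.9% of all genes tested were above 0).

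The intervals give the size of change that these data bear on. The 95% interval of the ratio lay within 2-fold in both directions for 40 of the 44 members (70.1% of all genes tested), and reached 2-fold only for Wipi1, Optn, Tfeb and Atg9b, of which the last 3 had no more than 47 counts in any library. The standard errors of the log2 fold change ran from 0.14 to 0.49. Even the narrowest intervals, such as 0.842 to 1.32 for Wipi2, hold changes in either direction, which 2 libraries per group do not exclude. Compared as normalized CPM (by edgeR's TMM method), the groups did not overlap for 11 of the 44 members, 25%, against 21.8% of all genes tested. Both libraries labelled cKO were below both labelled WT for Atg14, Wdr45, Atg4a and Tfeb (10.8% of all genes tested), and above both for Becn1, Atg2b, Wipi2, Atg16l2, Atg3, Atg7 and Calcoco1 (11.0% of all genes tested). Because the tissue was sequenced in bulk, fewer cells that express a gene and less RNA per cell cannot be told apart in any of these values.

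**Figure D2:**
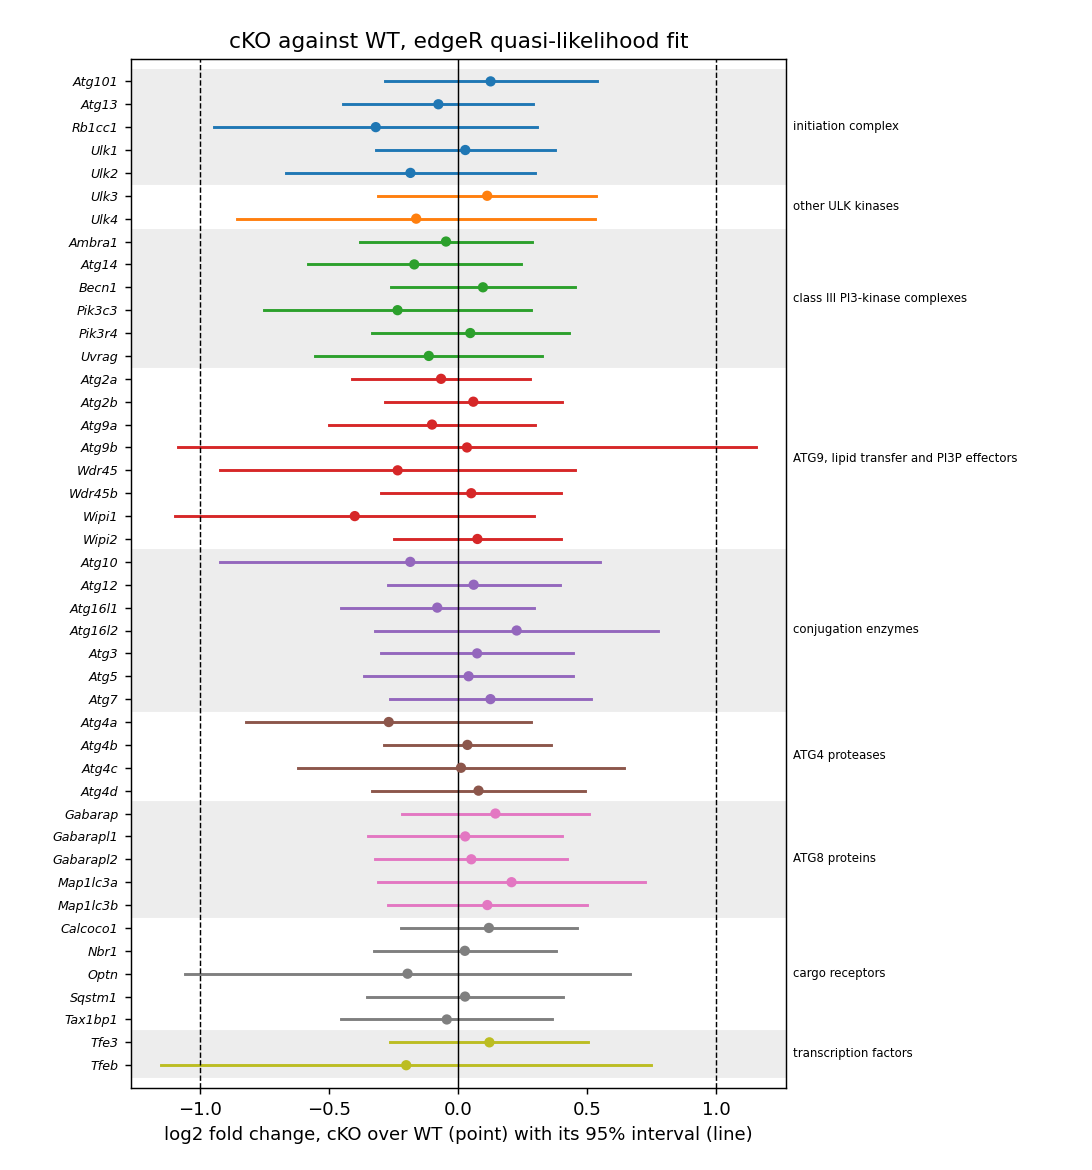
Fitted log2 fold change of the libraries labelled cKO over those labelled WT for each of the 44 genes (points) with its 95% interval (lines), grouped by role; dashed lines mark 2-fold. Every interval includes 0, and 4 of the 44, those of Wipi1, Optn, Tfeb and Atg9b, reach a dashed line.

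Initiation begins with the ULK complex, in which ULK1 or ULK2 is the kinase, RB1CC1 (FIP200) the scaffold, and ATG13 and ATG101 the regulatory subunits. Ulk1, the highest of the complex per kilobase, had 233 and 261 CPM in WT and 248 and 253 CPM in cKO (values are given in the order of the replicate numbers throughout), with both libraries labelled cKO inside the range of the WT libraries (log2 fold change 0.03, SE 0.15). Rb1cc1, the lowest of the complex per kilobase (chromosome 1, 6206197 to 6276648, plus strand), had 58.9 and 53.7 CPM in WT and 58.8 and 31.2 CPM in cKO. Only cKO 2 was low, and cKO 1 lay beside WT 1. The mean was 56.3 ± 3.66 CPM in WT and 44.98 ± 19.5 CPM in cKO (SD, n = 2 each), and the log2 fold change was -0.32 (SE 0.27). Ulk2 (chromosome 11, 61775649 to 61855073, minus strand) was also lowest in cKO 2, with 107 and 118 CPM in WT and 120 and 77.5 CPM in cKO (log2 fold change -0.18, SE 0.21). For both genes the difference rested on cKO 2. Without cKO 2 the log2 fold change was 0.07 for Rb1cc1 and 0.10 for Ulk2, and without cKO 1 it was -0.83 for Rb1cc1 (edgeR quasi-likelihood test, Benjamini-Hochberg adjusted p = 0.0512) and -0.52 for Ulk2 (adjusted p = 0.12), both past an unadjusted p of 0.05. Those fits leave 1 library in a group, whose spread is assumed to be that of the other group, and without cKO 1 an unadjusted p of at most 0.05 was reached by 15.0% of all genes tested.

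Atg101 and Atg13 gave log2 fold changes of 0.13 and -0.08, with overlapping groups. The remaining ULK kinases are less closely tied to autophagy, ULK3 being better known in Hedgehog signalling. Ulk3 had 32.8 and 35.2 CPM in WT and 33.1 and 40.0 CPM in cKO, and Ulk4 had 13.5 and 7.77 CPM in WT and 9.81 and 9.01 CPM in cKO. The libraries labelled WT spanned the wider range for Ulk4, so its log2 fold change of -0.16 was smaller than the spread between replicates.

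The class III PI3-kinase makes the phosphoinositide PI3P at the site of membrane growth. PIK3C3 (VPS34) is its catalytic subunit, PIK3R4 (VPS15) its regulatory subunit and Beclin 1 (BECN1) a shared subunit; ATG14 defines the complex that acts in autophagosome formation and UVRAG the one that acts later and in endosomes, while AMBRA1 binds Beclin 1. Pik3c3 had 43.2 and 65.7 CPM in WT and 48.9 and 43.3 CPM in cKO. Only WT 2 was high, and the other 3 libraries lay close together. Its log2 fold change was -0.23 (SE 0.22) and turned to 0.13 without WT 2. Atg14 had 26.2 and 29.1 CPM in WT and 24.7 and 24.3 CPM in cKO, so both libraries labelled cKO were lower, by a log2 fold change of -0.17 (SE 0.18). Becn1 was the opposite case, with 48.6 and 50.4 CPM in WT and 52.6 and 52.7 CPM in cKO (log2 fold change 0.10, SE 0.15). Per kilobase Ambra1 was the highest and Uvrag the lowest of the group, Ambra1 with 101 and 107 CPM in WT and 97.1 and 103 CPM in cKO and Uvrag with 23.1 and 26.8 CPM in WT and 21.8 and 24.0 CPM in cKO, both with overlapping groups.

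Lipids reach the growing membrane through the scramblases ATG9A and ATG9B and the lipid transfer proteins ATG2A and ATG2B. The group also holds the PI3P-binding proteins WIPI1, WIPI2, WDR45B (WIPI3) and WDR45 (WIPI4). The 8 genes had a median log2 fold change of -0.01 and 4 of them lay above 0. Wipi1 (chromosome 11, 109573331 to 109611967, minus strand) had the smallest p of all members, with counts of 220 and 167 in WT and 120 and 177 in cKO, or 12.8, 9.01, 6.58 and 9.78 CPM. WT 1 was the highest library and cKO 1 the lowest, while WT 2 and cKO 2 lay between them in the order opposite to the group means. The mean was 10.9 ± 2.67 CPM in WT and 8.18 ± 2.27 CPM in cKO (SD, n = 2 each), a ratio of 0.758 with a 95% interval of 0.468 to 1.23 (edgeR quasi-likelihood test, Benjamini-Hochberg adjusted p = 0.9999). Without cKO 2 the log2 fold change was -0.71 and the unadjusted p fell under 0.05, as it did for 2.67% of all genes in that fit (adjusted p = 0.999), and without WT 1 it was -0.14. WT 1 was also the library with the highest sums of the meningeal, blood, endothelial, microglial and choroid plexus markers given above, and their part in the level of Wipi1 was not tested.

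Its relative Wipi2, which recruits ATG16L1, was far higher and far tighter, with 135 and 128 CPM in WT and 138 CPM in each library labelled cKO (log2 fold change 0.08, SE 0.14). Wdr45b, the highest of the 8 per kilobase, had 69.4 and 77.3 CPM in WT and 74.0 and 77.1 CPM in cKO. Wdr45 had 4.71 and 5.45 CPM in WT and 4.17 and 4.42 CPM in cKO, and both libraries labelled cKO were lower (log2 fold change -0.23, SE 0.30). Of the scramblases, Atg9a was the more abundant form in this tissue, at 30.5 to 35.6 CPM across the 4 libraries, whereas Atg9b had counts of 13 and 18 in WT and 15 and 17 in cKO. The ratio of cKO to WT for Atg9b had an interval of 0.471 to 2.23, the widest of all members. Atg2a and Atg2b had log2 fold changes of -0.07 and 0.06. Of the annotated 50-base stretches of Atg9a and Wdr45, 30.2% and 16.9% also occur in other annotated genes, mainly Gm29253 and Gm45208. Neither of these was listed among the genes counted, so sharing of reads with them was not measured.

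The conjugation enzymes work as a cascade in which ATG7 is the E1-like and ATG3 and ATG10 are the E2-like enzymes, and ATG12 joined to ATG5 forms, with ATG16L1, the complex that directs lipidation. The median log2 fold change of the 7 genes was 0.06, with 5 above 0. Atg3 was the highest per kilobase, with 40.1 and 38.7 CPM in WT and 41.5 and 41.0 CPM in cKO, and Atg7 had 30.9 and 28.9 CPM in WT and 32.4 and 32.3 CPM in cKO. In both, and in Atg16l2, the libraries labelled cKO were the higher pair, by log2 fold changes of 0.07, 0.13 and 0.23. Atg16l2, a paralog of Atg16l1 and the lowest of the group per kilobase, had counts of 159 and 150 in WT and 182 and 184 in cKO, and its fold change was the highest of all 44 members (SE 0.24). Atg5, Atg12 and Atg16l1, the parts of the lipidation complex, had log2 fold changes of 0.04, 0.06 and -0.08, with overlapping groups. Atg10 was low, with counts of 85 and 104 in WT and 100 and 68 in cKO.

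The ATG4 proteases prime the ATG8 proteins at the glycine shown above and also release them from membranes. Atg4b, whose product is regarded as the main one of the family, was the highest per kilobase and had 104 and 109 CPM in WT and 109 and 108 CPM in cKO, a ratio with an interval of 0.819 to 1.28. Atg4a, the lowest, had counts of 192 and 196 in WT and 180 and 146 in cKO, and both libraries labelled cKO were lower, by a log2 fold change of -0.27 (SE 0.24). Of its annotated 50-base stretches, 51.2% also occur in another annotated gene, mainly its pseudogene Atg4a-ps, so its count depends on how such reads were treated. Atg4c had counts of 251 and 281 in WT and 343 and 200 in cKO, where the libraries labelled cKO lay on either side of the WT pair. Atg4d had a log2 fold change of 0.08.

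The ATG8 genes were the role group with the most uniform direction. All 5 had a log2 fold change above 0 (47.9% of all genes tested), with a median of 0.11. Gabarapl1 moved to -0.004 with an offset corrected for transcript length. All 5 were highest in cKO 2 (33.6% of all genes tested), but in none did the groups separate. Neither trait was particular to this role. Atg101, Ulk3, Atg4d, Sqstm1, Calcoco1 and Tfe3 were also above 0 and highest in cKO 2. The ATG8 genes span only 1777 to 12910 bases, and the difference of cKO 2 went with span, as given below. Gabarap (chromosome 11, 69991143 to 69994951, plus strand) had counts of 4519 and 4585 in WT and 4692 and 5475 in cKO. That is 263, 247, 257 and 303 CPM, so cKO 1 lay between the WT libraries and cKO 2 above them (log2 fold change 0.15, SE 0.16). Map1lc3a (chromosome 2, 155276297 to 155278073, plus strand) had counts of 1255, 1822, 1481 and 2086 in the same order, or 72.9, 98.3, 81.2 and 115 CPM. WT 1 and cKO 1 were the low pair and WT 2 and cKO 2 the high pair. In log2 of normalized CPM plus 1, WT 2 exceeded WT 1 by 0.45 and cKO 2 exceeded cKO 1 by 0.52. The group means, each over 2 libraries, differed by 0.20. In CPM the means were 85.6 ± 17.9 in WT and 98.3 ± 24.1 in cKO (SD, n = 2 each), with a log2 fold change of 0.21 (SE 0.22).

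Map1lc3b, the form whose protein is most often used as a marker of autophagosomes, had counts of 3864 and 4411 in WT and 4043 and 4982 in cKO. Gabarapl1 had 1629, 1755, 1561 and 1920 and Gabarapl2 had 1480, 1669, 1494 and 1797. In CPM, cKO 1 was the lowest and cKO 2 the highest library for all 3 of these genes, so the libraries labelled cKO enclosed both WT libraries. Summed over the 5 genes the level was 741 and 768 CPM in WT and 728 and 899 CPM in cKO. The direction rested on cKO 2. Without it, the log2 fold change was -0.07 for Map1lc3a, -0.13 for Gabarapl1, -0.09 for Gabarapl2, -0.05 for Map1lc3b and 0.02 for Gabarap, and without WT 1 it was -0.002 for Map1lc3a. Without cKO 1, that of Map1lc3a was 0.45 (edgeR quasi-likelihood test, unadjusted p under 0.05 and adjusted p = 0.279, in a fit where 15.0% of all genes reached an unadjusted p of at most 0.05). Of the 50-base stretches of Map1lc3b, 5.77% also occur in other genes, chiefly the processed pseudogene Gm6055, which was itself given 315, 371, 291 and 435 counts in the same order, and for Gabarapl2 the share was 12.2%, chiefly with the pseudogene Gm3724 at 2 to 8 counts.

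**Figure D3:**
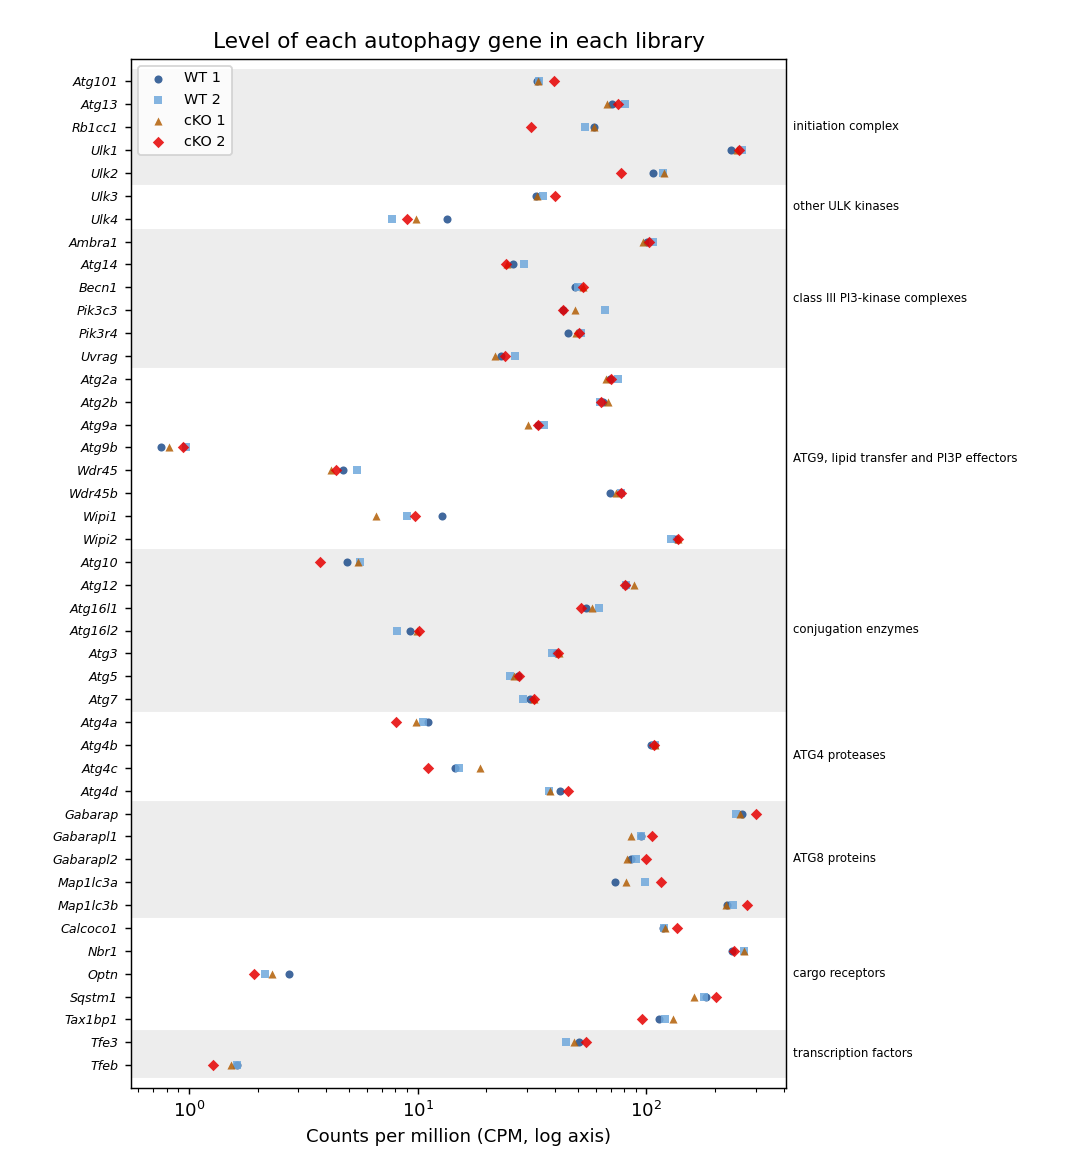
Level of each autophagy gene in each of the 4 libraries (horizontal log axis, CPM; one marker per library), grouped by role. The 5 ATG8 genes are highest in cKO 2 (303 CPM for Gabarap), as are Atg101, Ulk3, Atg4d, Sqstm1, Calcoco1 and Tfe3. Rb1cc1 and Ulk2 are lowest in cKO 2 (31.2 and 77.5 CPM) with cKO 1 beside the WT libraries.

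The cargo receptors link ubiquitinated or damaged material to the ATG8 proteins. Sqstm1, which encodes p62, was the highest of them per kilobase, with 182 and 178 CPM in WT and 162 and 202 CPM in cKO, so the libraries labelled cKO again enclosed the WT pair (log2 fold change 0.03, interval of the ratio 0.783 to 1.33). Nbr1, a relative of p62, had 237 and 266 CPM in WT and 268 and 242 CPM in cKO. Optn (optineurin), a receptor for mitochondria and bacteria, was the lowest, with counts of 47 and 40 in WT and 42 and 35 in cKO. Calcoco1, described as a receptor for endoplasmic reticulum and Golgi, had counts of 2037 and 2215 in WT and 2208 and 2455 in cKO. After normalization both libraries labelled cKO were above both WT libraries, by a log2 fold change of 0.12 (SE 0.15). Tax1bp1, which acts with p62 and NBR1 on protein aggregates, had counts of 1953 and 2236 in WT and 2379 and 1731 in cKO, with cKO 1 highest and cKO 2 lowest.

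TFEB and TFE3 are related transcription factors that move to the nucleus when mTORC1 is inactive and switch on genes of lysosomes and autophagy. Tfe3 was the one present at a substantial level, with 50.6 and 44.6 CPM in WT and 48.5 and 54.3 CPM in cKO (log2 fold change 0.12, SE 0.17). Tfeb had counts of 28 and 30 in WT and 28 and 23 in cKO, 1.27 to 1.63 CPM, and although the groups did not overlap after normalization the interval of the ratio ran from 0.451 to 1.68. These factors bind the E-box CACGTG, best in the longer CLEAR palindrome, the E-box with GT before it and AC after it. The 250 bases before any RefSeq start of a gene (GRCm38.p6) were searched on both strands. CACGTG occurred in 3 of the 37 members with a promoter sequence, 8.11%, against 9.72% of the 11221 tested genes that have one. These members were Atg3, Atg5 and Atg7. The stretch of Atg7 (chr6:114670937-114670996) lies inside the gene, which starts at 114643097, and so precedes an internal start. The E-box with GT before it or AC after it occurred in 2 of the 37 members, 5.41%, and 3.81% of the tested genes. The full palindrome, which contains the E-box, occurred in 0 of the 37 members and 0.544% of the tested genes. The promoter of Atg3 is shown because it held 2 copies of the E-box within 60 bases at chr16:45158708-45158767 (plus strand). The first copy is in capitals and the other stands near the right end in lower case.
Atg3: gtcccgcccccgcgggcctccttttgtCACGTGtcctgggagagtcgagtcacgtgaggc
A match of these letters is a description and does not show that either factor binds there.

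Several members above were extreme in cKO 2. In normalized CPM, cKO 2 was the highest library for 19 of the 44 members, 43.2% (33.6% of all genes tested). It was the lowest for 10 of the 44, a smaller share than the 33.4% of all genes tested. It was thus at either extreme for 29 members. WT 2 was the highest for 15 members and WT 1 the lowest for 13, counts for which the shares of all genes tested were not taken. The median size of the log2 difference between cKO 2 and cKO 1 was 0.152 over the members, against 0.116 between WT 2 and WT 1 and 0.0969 between the group means. Over the 11530 genes with a mean of at least 5 CPM the same medians were 0.255, 0.130 and 0.0981. A difference between group means averages over 2 libraries a side and is smaller than one between single libraries for that reason alone, so only the first 2 medians are of like kind, and cKO 2 and cKO 1 were further apart than WT 2 and WT 1 by that measure.

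The difference of cKO 2 from the other libraries went with the span of the member. Differences are given here as the log2 of normalized CPM plus 1 in cKO 2 minus the mean of the other 3 libraries. The 11 members with the shortest span in the genome, 1777 to 12480 bases, had a median difference of 0.24 with 10 of 11 above 0, led by Map1lc3a at 0.48, Map1lc3b at 0.29, Gabarap at 0.26 and Ulk3 at 0.26. The 22 members of middle span had a median of 0.05, with Atg4c at -0.48 and Tax1bp1 at -0.32 among them. The 11 members with the longest span, 69076 to 321847 bases, had a median of -0.13 with 7 of 11 below 0, among them Rb1cc1 at -0.83, Ulk2 at -0.54, Atg10 at -0.40 and Atg4a at -0.33. Uvrag, Ambra1, Atg5 and Atg7, although long, stood at 0.04, 0.04, 0.09 and 0.09.

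An order by length was also present across genes at large. Over the 11523 genes with a mean of at least 5 CPM and a known transcript length, the median difference of cKO 2 fell from 0.35 for longest transcripts under 1 kb to -0.20 for those of 6 kb or more. In cKO 1 it ran the other way, from -0.16 to 0.14, and so it did in WT 2, from -0.09 to 0.09, while in WT 1 it stayed between -0.09 and -0.003. The differences of each gene over the 4 libraries sum to 0, so a fall in cKO 2 forces an opposite trend on average in the others. The trends of the libraries are therefore not separate observations. The 39 members among these genes followed the order by transcript length less closely at the long end, with medians of 0.04 for the 15 members of 4 to 6 kb and 0.02 for the 5 of 6 kb or more, where all genes had -0.06 and -0.20. The Spearman correlation of the cKO 2 difference with span was -0.669 over the 39 members with at least 5 CPM and -0.416 over all 11523 genes. With the length of the longest transcript it was -0.404 and -0.476. These correlations are across genes that share the same 4 libraries and are given as descriptions. When each library's offset was corrected for transcript length, 0 members had an unadjusted p of at most 0.05, and the median log2 fold change of the members was 0.03. Among the ATG8 genes it moved from 0.21 to 0.12 for Map1lc3a and from 0.15 to 0.09 for Gabarap. It moved from 0.05 to 0.01 for Gabarapl2 and from 0.03 to -0.004 for Gabarapl1, but from 0.11 to 0.15 for Map1lc3b. No offset was fitted for span. RNA integrity was not measured in the files used here, and the part of RNA quality or library preparation in the length trend was not tested.

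**Figure D4:**
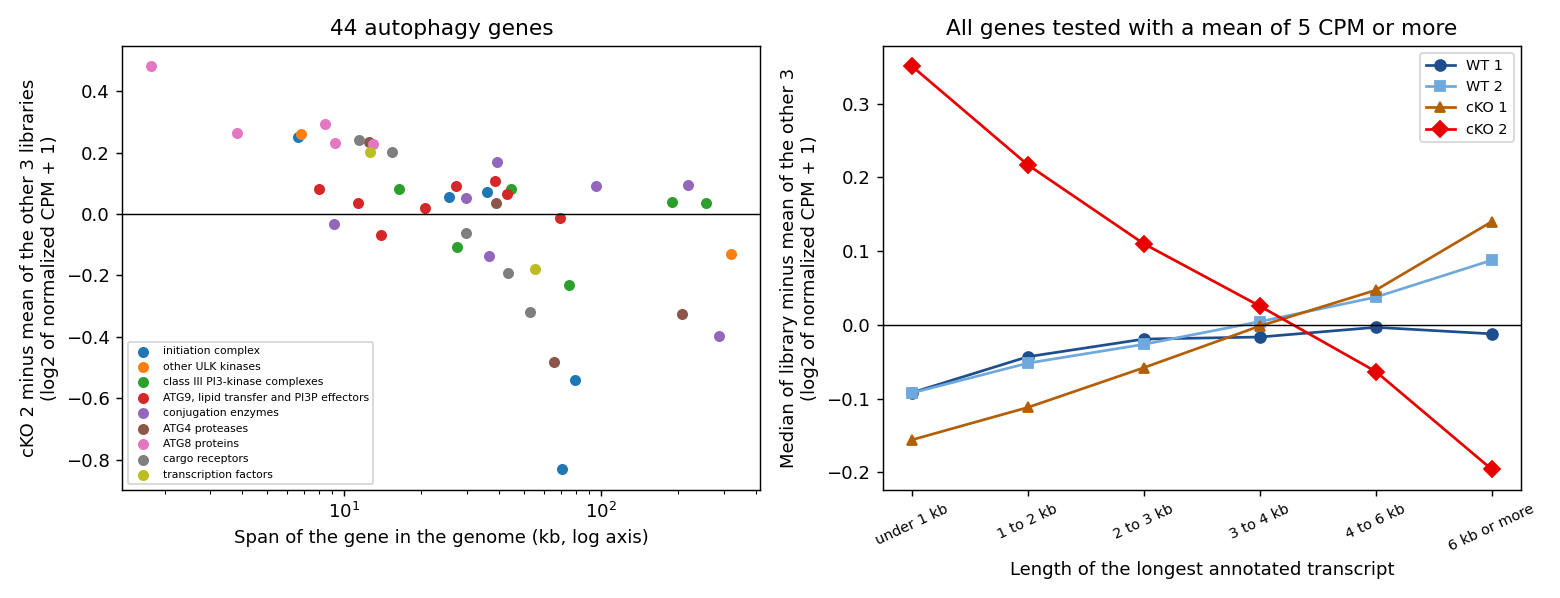
Left, difference of cKO 2 from the mean of the other 3 libraries (log2 of normalized CPM plus 1) for each of the 44 members against its span in the genome (kb, log axis), coloured by role; right, median of the same difference for each library over all tested genes with a mean of 5 CPM or more, in bins of transcript length. Short members such as Map1lc3a (0.48) lie above 0 and Rb1cc1 (-0.83) and Ulk2 (-0.54) below. The line of cKO 2 falls from 0.35 to -0.20 while that of cKO 1 climbs from -0.16 to 0.14. The differences of a gene sum to 0 over the libraries, so opposite lines are in part forced.

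Genes that act before and after the core machinery were examined with 5 lists that hold 100 genes of the table, 99 of them tested (Ccpg1 was not). Of the 99 genes, 0 had an unadjusted p of at most 0.05 in edgeR's quasi-likelihood test and 0 in DESeq2 (1.23% of all genes tested reached it with edgeR). There were 51 with a log2 fold change above 0 and 48 below, and the median was 0.003. The 26 genes of nutrient sensing (mTORC1, AMPK, the Rag GTPases and the Ragulator) had a median of 0.05, with 18 above 0. Mtor, the kinase that restrains ULK1, had counts of 1948 and 2402 in WT and 2463 and 2327 in cKO (log2 fold change 0.13, SE 0.15). The 12 other early factors, which include the scramblases VMP1 and TMEM41B, had 7 above 0 and a median of 0.01, and the 12 genes of fusion with lysosomes had 6 above 0 and a median of 0.01.

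The 34 genes of lysosomes and TFEB targets had 15 above 0 and a median of -0.02, and the 15 tested receptors for organelles had 5 above 0 and a median of -0.07. Bnip3, a hypoxia-induced receptor for mitochondria, had the smallest p of the 99 genes and is named after its values were seen. Its counts were 329 and 175 in WT and 172 and 148 in cKO. WT 1 alone was high and WT 2 lay beside cKO 1 (log2 fold change -0.68, SE 0.34). Lamp2, a major lysosomal membrane protein, had 814, 567, 708 and 369 counts in the same order and was lowest in cKO 2. Trp53inp1, of the other early factors, had 1274, 1089, 1411 and 469 counts and was also lowest in cKO 2. Its log2 fold change was -0.36, and -1.33 without cKO 1. Without cKO 1, 15 of the 99 genes had an unadjusted p of at most 0.05, in a fit where 15.0% of all genes reached it. Without WT 2 there were 2, Bnip3 with a log2 fold change of -1.08 and Vamp8 with -1.08, against 3.83% of all genes.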

How the data were processed

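RNA-seq counts of 4 libraries were analysed, 2 labelled WT and 2 labelled cKO. The authors deposited raw counts of reads per gene, without normalization. The submitters' processing notes name Bowtie2 2.2.3, TopHat2 2.0.12, HTSeq 0.6.0 and mm9, but gene positions of the deposited table lie within 1 base of GRCm38 (GENCODE M21) at a start or an end for 97.2% of 27232 genes, so they were read as GRCm38. Strand and the treatment of reads shared between genes were not given in the sources used here. Of 27304 rows, 11 that name no gene (0.0403% of rows) were left out. A smaller table of cKO 1 and WT 1 holds identical counts for all 44 members. Columns with the authors' normalized means, fold changes and p-values were not used.

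Counts were fitted with edgeR 4.0.16 in R 4.3.3 (TMM, filterByExpr, quasi-likelihood test, no covariate) over 16145 genes, with Benjamini-Hochberg adjustment over all of them. Thresholds were the study's, a fold of at least 2 and p of at most 0.05. Overlap of groups and the highest library were taken from TMM-normalized CPM, and differences between libraries from log2 with a pseudocount of 1. CPM in the text are scaled to total counts of 17209654 to 18533391 per library, which set the counting error. Exon lengths and 50-base stretches came from GENCODE M21 and promoters from RefSeq (GRCm38.p6). Exchanging labels among 4 libraries allows too few arrangements for a permutation test.

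The members, lists and tests were chosen with earlier results of these data known. Values are printed for the 10 members with the smallest p, the ATG8 genes and the highest and lowest member per kilobase of each role, and pathway genes with p of at most 0.05. Further members, Mtor, Bnip3, Lamp2, Trp53inp1 and Vamp8 were named after their values were seen. Alternatives were RLE, upper-quartile and total-count scaling, other filters, DESeq2 1.42.0, a replicate block and leaving out each library, and an offset corrected for transcript length was added after the data were seen. The fit was tested on simulated data. 1 marker gene is not reported here.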

Additional observations from a re-analysis of the deposited data

How the results depend on the processing

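Under 12 alternatives, 0 members met the study's thresholds or had an adjusted p under 0.05 in edgeR's quasi-likelihood test or DESeq2. The count of members with an unadjusted p of at most 0.05 was 0 to 3 with a library left out (3 without cKO 1, Rb1cc1, Ulk2 and Map1lc3a, and 1 without cKO 2, Wipi1) and 0 under the others. The median log2 fold change of the members lay between -0.030 without WT 1 and 0.060 without WT 2. The count of pathway genes ran from 0 to 15 with a library left out (15 without cKO 1, 2 without WT 2). It was 1 of 100 with no filter on low counts (Bnip3, where 2.78% of all genes passed) and 3 with the replicate block (Trp53inp1, Bnip3 and Lamp2). No label ties a replicate number to a shared litter or batch. Same-numbered libraries deviated together with a correlation of 0.139 over 16145 genes, which with only 2 numbers does not settle whether they pair the libraries. With the replicate block 0 members had an unadjusted p of at most 0.05 while 3.31% of all genes did, against 1.23% without it. Of 156 log2 fold changes of 13 named members, 143 kept their direction and their side of the unadjusted threshold, 4 passed it only with a library left out, and 9 changed sign. With a library left out, Rb1cc1 ran from -0.83 to 0.073, Ulk2 from -0.52 to 0.10, Pik3c3 from -0.51 to 0.13, Map1lc3a from -0.068 to 0.47, Gabarapl1 from -0.13 to 0.19, Gabarapl2 from -0.093 to 0.20 and Map1lc3b from -0.050 to 0.27. The sign turned without cKO 2 for 6 of these 7 genes, for Pik3c3 without WT 2 and for Map1lc3a also without WT 1 (-0.0021), and Gabarapl1 moved to -0.0043 with the length offset. The cause was not tested. The spread within each group, from 2 libraries, limits the precision, and Atg9b, Tfeb and Optn, at no more than 47 counts, were limited by depth as well.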
